A study of Homo sapiens with 2 samples.

Results

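The ETS transcription factor genes described here are 10 genes of the human ETS family, ERG, FLI1, ETS1, ETS2, ETV1, ETV4, ETV5, ETV6, ELF1 and ELK4. They were chosen by name, with earlier results of these data known. A peak was counted for a gene when the peak list gave that gene as its Gene Name. A gene without such a peak was counted as having no peak detected. Of the 18070 mERG peaks in the list, 6 were named for these genes, and 3 of the 10 genes had at least 1 of them. The same count over all genes was 20.4% of the 20052 protein-coding RefSeq genes.

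The peaks came from chromatin immunoprecipitation followed by sequencing (ChIP-seq) in VCaP cells. This established line was derived from a prostate cancer and is positive for the TMPRSS2-ERG fusion, in which the androgen-driven TMPRSS2 gene is joined to ERG. The mERG ChIP group was 1 library made with an antibody against mERG, the methylated form of the ERG protein. The control group was 1 library of the same cells, titled as input while its antibody label names IgG. With 1 library in each group the values have no replicate error and no test was made, and the depth behind each peak is unknown.

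ETS proteins share a winged helix-turn-helix DNA-binding domain, the ETS domain, which reads the bases GGAA within a longer motif. Subgroups of the family differ in their other domains, so that some members activate and others repress transcription. In prostate cancer, gene fusions place ERG and, less often, ETV1, ETV4 or ETV5 under promoters that are active in prostate epithelium.

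Each of the 3 genes with a peak is represented below by the 201 bases around the centre of its strongest named peak, meaning the one with the highest score, and ERG, the gene of the immunoprecipitated protein, by both of its peaks. The strongest peak among those named for or lying inside GABPA and SPDEF, the other family genes with peaks of high score, is shown for comparison. The sequences are the plus strand of GRCh37 (hg19), written 5′ to 3′. Capitals mark each GGAA of the plus strand and each TTCC, which is GGAA on the minus strand.
ERG intron peak, chr21:39943794-39943994: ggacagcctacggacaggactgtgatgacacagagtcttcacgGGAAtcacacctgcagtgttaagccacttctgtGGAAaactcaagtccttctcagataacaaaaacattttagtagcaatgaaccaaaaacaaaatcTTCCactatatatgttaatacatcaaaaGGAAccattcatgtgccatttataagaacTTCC
ERG upstream peak, chr21:40047939-40048139: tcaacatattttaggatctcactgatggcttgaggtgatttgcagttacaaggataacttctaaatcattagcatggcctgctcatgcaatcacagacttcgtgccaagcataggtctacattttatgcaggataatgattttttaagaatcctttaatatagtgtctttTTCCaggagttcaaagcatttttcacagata
ETV6 intron peak, chr12:11923858-11924058: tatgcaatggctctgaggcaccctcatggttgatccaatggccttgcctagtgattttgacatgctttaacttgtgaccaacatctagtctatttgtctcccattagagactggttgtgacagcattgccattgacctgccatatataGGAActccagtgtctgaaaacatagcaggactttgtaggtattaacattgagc
ELF1 intron peak, chr13:41542242-41542442: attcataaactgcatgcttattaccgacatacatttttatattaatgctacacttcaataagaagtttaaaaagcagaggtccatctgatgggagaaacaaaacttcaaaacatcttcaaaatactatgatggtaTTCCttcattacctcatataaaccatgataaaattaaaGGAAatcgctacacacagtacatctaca
GABPA intron peak, chr21:27130574-27130774: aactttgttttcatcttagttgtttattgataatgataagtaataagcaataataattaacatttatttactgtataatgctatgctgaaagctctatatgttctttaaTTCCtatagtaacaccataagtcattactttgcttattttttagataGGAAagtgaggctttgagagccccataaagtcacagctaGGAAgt
SPDEF upstream peak, chr6:34574661-34574861: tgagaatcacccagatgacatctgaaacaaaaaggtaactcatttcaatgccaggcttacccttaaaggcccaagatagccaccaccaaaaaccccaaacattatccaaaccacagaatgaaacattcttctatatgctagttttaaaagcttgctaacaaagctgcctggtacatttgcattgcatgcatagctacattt
GGAA occurred 5 times in the ERG intron window, counting both strands, and 1 time in the ERG upstream window. The ETV6 window held 1 and the ELF1 window 2. The GABPA window held 3, and the SPDEF window, at the centre of a peak 2272 bp wide, held 0.

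ERG, which directs the development of blood vessels and blood cells and is the oncogene of the TMPRSS2 fusion, had 2 named peaks, both with low scores. The score is the value the authors' list gives each peak, with no definition in its header, and stronger and weaker refer to it alone. It ran from 33.01 to 592.19 with a median of 40.86. The stronger ERG peak lay at chr21:39943714-39944074, in intron 3 of the 4 introns of a noncoding ERG transcript, 13.0 kb downstream of the transcription start site (TSS) that the list used. Its score was 35.89, and 23.9% of all peaks had that score or a lower score. The other lay in intergenic sequence at chr21:40047857-40048222, 14.3 kb upstream of the ERG TSS that the list used. Its score of 33.02 was close to the lowest of the list, with 84 of the 18070 peaks at or below it. Neither peak reached the median of the list.

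ERG has several start sites, and the positions of both peaks depended on the transcript. In GENCODE the gene covers 281.8 kb on the minus strand, at chr21:39751949-40033704, and 8 of its 15 transcripts span the peak centre. The centre lay 89.81 kb inside the gene measured from its furthest start, but 73.5 kb upstream of the start of the canonical transcript. The upstream peak lay 178 kb from that canonical start. No peak was found between the intron peak and the end of the gene, and the next peak beyond that end was 870.4 kb away, in an intron with the name DYRK1A.

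Only the 2 ERG peaks lay within 500 kb of the gene. The nearest peaks with another name were 870.4 kb away on the DYRK1A side and 526 kb away on the PSMG1 side. Within 1 Mb there were 83 peaks, of which 60, all of them at least 870.4 kb away, were named for DYRK1A, a protein kinase gene, with scores up to 163.76. On the other side, 13 were named for PSMG1 and 6 for the bromodomain gene BRWD1. The 2.8 Mb between ERG and TMPRSS2, the stretch that is lost in the deletion form of the fusion, held 29 peaks or 10.3 per Mb, beside 10.5 per Mb over chromosome 21. Of these 29 peaks, 19 lay inside BRWD1.

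FLI1, the closest relative of ERG and the partner of EWSR1 in Ewing sarcoma, had no peak detected. The nearest peak was 154.7 kb beyond the gene and was named for TP53AIP1. On its other side no peak was found for 2337 kb. ETS1, a neighbour of FLI1 on chromosome 11 that responds to Ras and ERK signalling, also had no peak, and its nearest was the same TP53AIP1 peak at 380.4 kb. The gap that holds both genes was 2619 kb long.

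ETS2, the close relative of ETS1, lies between ERG and TMPRSS2 on chromosome 21 and had no peak. Its nearest peak was the upstream ERG peak, 129.1 kb from the gene. The gap around ETS2 was 511.7 kb long and ended at a peak with the name PSMG1.

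ETV1, ETV4 and ETV5, the PEA3 group of activators, had no peak detected in any of the 3 genes. ETV1 lay furthest from any peak, with the nearest at 1090 kb, and no peak was found within 1 Mb of it, although chromosome 7 carried 8.45 peaks per Mb. The nearest peak to ETV4 was 242.1 kb away, at the promoter of TMEM106A, in a region with 28 peaks within 1 Mb. ETV5 had its nearest peak at 116.7 kb, in an intron and named for the splicing factor gene TRA2B, and 2 peaks within 1 Mb. None of the 3 genes held a peak centre.

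ETV6, a repressor needed for blood formation and a frequent fusion partner in leukaemia, had the most named peaks of the 10 genes, 3. The strongest, at chr12:11923710-11924207, lay in intron 2 of 7, 121 kb downstream of the TSS, with a score of 41.75. A weaker peak followed in the same intron at chr12:11931866-11932152, 129 kb downstream, with a score of 33.53. The remaining one was intergenic at chr12:11770727-11771044, 31.9 kb upstream, with a score of 35.39 and its centre in an ERV1 long terminal repeat element. The strongest was just above the median of the list and the other 2 were below it.

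Inside ETV6 there were 3 more peaks to which the list gave no gene name, so that they did not enter the count. They lay at chr12:11997478-11997945 in intron 3 of 7, and at chr12:12024796-12025061 and chr12:12034329-12034708 in intron 5 of 7. Their scores were 41.29, 36.45 and 41.37. Counted by position, ETV6 held 5 peaks along its 245.7 kb, all between 121.3 and 231.9 kb from its start. The list as a whole had 40 peaks without a gene name.

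ELK4, a ternary complex factor that binds DNA together with serum response factor, had no peak detected. Its nearest peak, 75.79 kb from the gene, was intergenic and named for SLC45A3, the neighbouring gene that forms a read-through transcript with ELK4 in prostate cancer. That peak had a score of 58.59, above every peak named for the 10 genes.

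ELF1, a regulator of blood cell and endothelial genes, had 1 named peak, at chr13:41542164-41542521 in intron 1 of 7, 14.1 kb downstream of the TSS used by the list. With a score of 43.3 it was the strongest of the 6, and 58.8% of all peaks scored as low or lower. A stronger peak inside ELF1, with a score of 53.36, lay in its last intron, intron 7 of 7, at chr13:41509318-41509652, and was named for the pseudogene SUGT1P3. Measured from the furthest ELF1 start, both peaks fell in the far part of the 129.5 kb gene, at 93.23 and 126.1 kb.

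**Figure D1:**
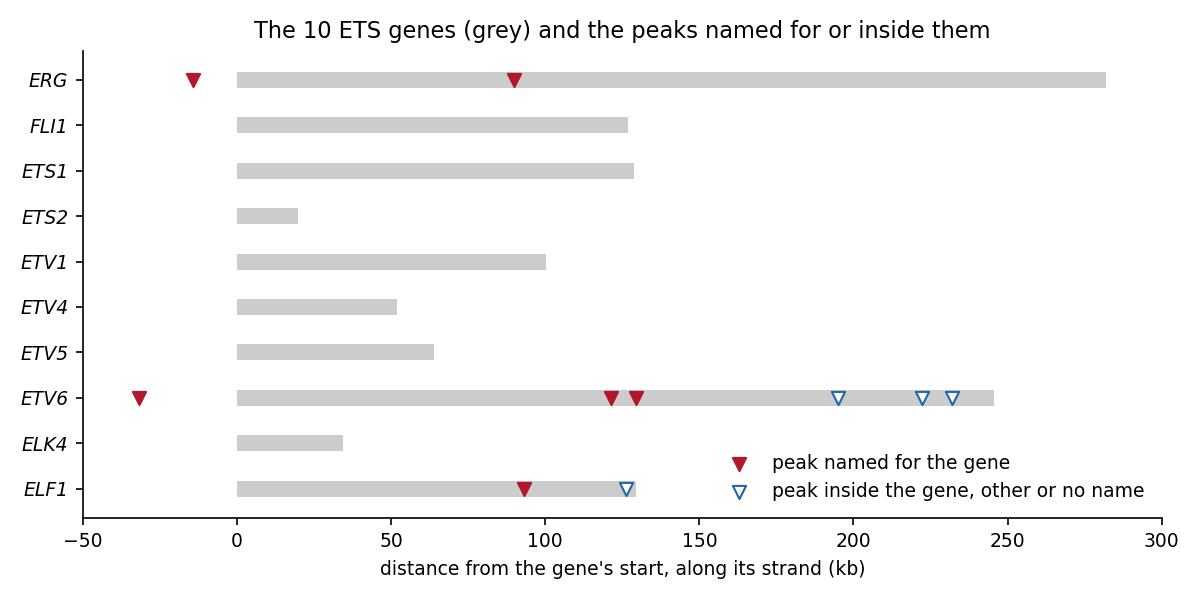
The 10 genes drawn as grey bars along their own strand, with distance from the furthest annotated start in kb. Filled triangles are peaks named for the gene and open triangles are peaks inside it with another name or none. ERG, ETV6 and ELF1 carry all the triangles, and no triangle sits at a start.

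Taken by position instead of name, 3 of the 10 genes held a peak centre, beside 19.6% of the 20163 protein-coding GENCODE genes, and they were again ERG, ETV6 and ELF1. These genes held 8 peaks, of which 4 bore the name of their gene, 1 another name and 3 none. None of the 10 genes had a named peak within 10 kb of a TSS, a count of 0 beside 8.92% of the protein-coding RefSeq genes. The distances of the 6 peaks ran from 13 to 129 kb with a median of 23.1 kb, and the median over the list was 27.8 kb. Peaks near a TSS were few in the whole list, where 20.1% lay within 10 kb and 0.482% within 1 kb.

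By score, the 6 peaks had a median of 35.64 beside 40.86 for all peaks, and a range of 33.02 to 43.3. The direction turned with assignment by position, a comparison added after seeing the data. The 8 peaks inside the 10 genes had a median of 41.33 and a highest score of 53.36, beside a median of 41.12 for the 16768 peaks inside protein-coding genes. No member had a named peak with a score of at least 50, a count of 0 beside 7.66% of the protein-coding RefSeq genes. Over the list 4511 peaks reached that score. The median width was 359.5 bp for the 6 peaks and 400 bp for the list. Introns held 4 of the 6 peaks, 66.7% with a Wilson 95% interval of 30.0 to 90.3%, and 87.6% of all peaks. Intergenic sequence held the other 2, where the share of all peaks was 7.53%. A repeat element was at the centre of 1 of the 6 peaks and of 42.4% of all peaks.

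All 6 named peaks had GGAA on either strand within 100 bp of the centre, a share of 100% with a Wilson 95% interval of 61.0 to 100%. That short motif was common everywhere. It occurred in 83.8% of all windows of this length at peak centres and in 79.6% of windows 2000 bp to either side. The longer ETS core CCGGAAGT, which contains GGAA, was searched on both strands with at most 1 mismatch outside GGAA. None of the 6 windows held it, and it was in 2.62% of all windows at peak centres and 2.98% of the windows 2000 bp away. Over whole peaks, 1 of the 6 held it, the ERG intron peak, with the word CCGGAAGG outside the central window, and 6.4% of all peaks did. The ERG intron peak also had the most GGAA words of the 6, with 8 along its 361 bp.

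Long genes held peaks more often, and the 10 genes are long by their median, although ETS2, at 19.77 kb, is not. The 10 genes had a median length of 113 kb, beside 27.2 kb over all protein-coding genes. When those genes were split by length into 10 groups of equal size, the share with a peak inside went from 0.248% in the shortest to 43.6% and 42.5% in the longest groups. ERG and ETV6 belong to the group of the longest genes and both had a peak inside. ELF1, ETS1, FLI1 and ETV1 belong to the next group, and of these 4 genes only ELF1 did. ETS1, at 128.8 kb, and FLI1, at 126.7 kb, are almost as long as ELF1. The other 4 members, which are shorter, had 0.

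Across the family, 7 of 28 ETS genes were named by at least 1 peak, with 26 peaks in all, again beside 20.4% of protein-coding genes. Besides ERG, ETV6 and ELF1 these were SPDEF, GABPA, ELK3 and ELF2. No peak was named for FEV, ETV7, ELK1, ELF4, ELF3, ELF5, EHF, ETV2, ERF, ETV3, ETV3L, SPI1, SPIB or SPIC. Of these, ELK1 and ELF4 lie on the X chromosome, which had 30 peaks in all, or 0.193 per Mb. The median score of the 26 peaks was 41.87, beside 40.86 for all peaks. GGAA was within 100 bp of the centre in 23 of them, or 88.5%, beside 83.8% of all peaks. Introns held 18, or 69.2%, beside 87.6% of all peaks.

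SPDEF, the prostate-derived ETS factor of luminal epithelium, had 10 named peaks, more than any other family gene, and 93.1% of all named genes had as many or fewer. None lay in the gene. All were upstream, from 24.3 to 64.6 kb from the TSS, and 8 of the 10 fell within transcripts of the neighbouring gene ILRUN. Their median score was 48.91. The strongest, at chr6:34573626-34575897 in an ILRUN intron, scored 106.36, and 98.1% of all peaks scored as low or lower. The region around SPDEF was dense in peaks, with 83 within 1 Mb of the gene. That was 41.1 per Mb, beside 3.64 per Mb over chromosome 6.

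GABPA, the DNA-binding subunit of the GA-binding protein that drives many housekeeping and mitochondrial genes, had 5 named peaks and 9 others inside it. The named ones lay 5.58 to 15.9 kb upstream, 4 of them in introns of ATP5PF, a gene for a subunit of the mitochondrial ATP synthase that starts next to GABPA in the opposite direction. The 9 inside GABPA were in its introns and bore the name ATP5PF, so the name of each gene was given to peaks in the other. The strongest of them, at chr21:27130286-27131062 in intron 6 of 9, scored 89.34. GABPA was the only 1 of the 28 genes with a named peak within 10 kb of a TSS, beside 8.92% of protein-coding RefSeq genes. Its region was also dense, with 64 peaks within 1 Mb of the gene. That was 31.4 per Mb, beside 10.5 per Mb over chromosome 21.

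ELK3, a ternary complex factor that mainly represses, had 4 named peaks, none in the gene. The nearest lay 1010 bp past its end, in intergenic sequence, and the other 3 in introns of the adjacent kinase gene CDK17, with scores from 34.61 to 44.18 for the 4. ELF2, a relative of ELF1, had 1 peak, in an exon at chr4:139994592-139994774, with a score of 36.49. Of the 26 peaks named for family genes, 5 lay inside the gene they were named for and 21 outside it. Leaving out intergenic peaks, 5 of 20 were in a transcript of the gene they were named for, 25% with a Wilson 95% interval of 11.2 to 46.9%. The same share was 71.1% over all peaks that fell in a RefSeq transcript of known gene, and for the 10 listed genes it was 4 of 4. Of the 20 peaks, those in another gene's transcript were all named for SPDEF, GABPA or ELK3. The 20 are therefore not independent, and the interval is too narrow.

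Other genes supply the promoter end of ETS fusions in prostate cancer. Of 10 such partners, 5 were named by at least 1 peak, beside 20.4% of protein-coding RefSeq genes, with 66 peaks in all. This list and that of the regulators below were chosen with earlier results of these data known, so their shares are descriptive only. By position, 2 of the 10 held a peak centre, beside 19.6% of protein-coding GENCODE genes. FOXP1, a forkhead factor gene 629.3 kb long, accounted for 55 of the 66 named peaks, with scores up to 112.26. By position it held 71 of the 78 peaks inside the partners, 16 of them named for MIR1284. ACSL3, a fatty acid ligase gene, had 7 peaks, all inside the gene. TMPRSS2 itself had 1, intergenic, 33.5 kb upstream of the TSS used by the list and 10.51 kb from the bound of the gene in GENCODE, with a score of 55.29, higher than either ERG peak. SLC45A3 had 1 and NDRG1 2, and none was detected for HERPUD1, KLK2, CANT1, HNRNPA2B1 or DDX5. HERPUD1 lies on chromosome 16, which had 26 peaks in all, or 0.288 per Mb.

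Among 6 regulators of ETS proteins or genes, 3 were named, again beside 20.4% of protein-coding RefSeq genes, and 4 held a peak centre, beside 19.6%. That 19.6% is not matched for length. COP1 is 262.5 kb long, in the group of the longest genes, where 42.5% held a peak. SPOP, at 79.28 kb, and TRIM25, at 77.69 kb, belong to a group with 36.5%, and DET1, at 52.24 kb, to one with 29.5%. USP9X, at 151.1 kb, held none in a group with 43.6%. SPOP, the substrate adaptor of a ubiquitin ligase for ERG, had 14 named peaks with a median score of 39.3, and 20 by position. COP1 and DET1, parts of a ubiquitin ligase for the PEA3 group, had 1 named peak each, with scores of 35.11 and 33.45. DET1 held 2 by position, the other named for MRPS11 with a score of 35.43. TRIM25, another ubiquitin ligase of ERG, had no named peak but held 3 with the names DGKE and MTVR2. No peak was detected for USP9X, a deubiquitinase of ERG, or for CIC, a repressor of ETV1, ETV4 and ETV5. USP9X lies on the X chromosome, which had 30 peaks in all, or 0.193 per Mb.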

How the data were processed

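Peaks were called by the authors, and the list's header names MACS peaks on hg19 annotated with HOMER. The submitters' processing notes name Bowtie2, Picard, HOMER and hg19. Peak strength was taken from the deposited score, which the header does not define. Distances to a TSS were taken from the list, and distances to gene bounds, annotated starts or neighbouring peaks were computed from GENCODE. No peak passed the end of a GRCh37 chromosome. Peak centres were placed in GENCODE release 44 genes on GRCh37, and RefSeq tables gave names only. A peak inside a gene had its centre within the gene's annotated bounds. Motifs were searched in 201 bp windows at 18037 centres on chromosomes 1 to 22, X and Y. Intervals cover counting error only. No per-sample signal was used, so nothing was compared between libraries. The text names the 10 genes, 28 family genes, fusion partners, regulators and genes named for peaks inside members; neighbouring genes were added after their values were seen. Members and lists were chosen with earlier results of these data known. Functions were tested on simulated data. Python 3.11.15, pandas 2.3.3, NumPy 2.4.6, SciPy 1.17.1 and Matplotlib 3.10.9 were used.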

Additional observations from a re-analysis of the deposited data

How the results depend on the processing

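Among the stronger 50% of peaks by score, 2 of the 10 genes were still named, but by 2 peaks in place of 6, with 0 for ERG. The intron share became 100%, but of only 2 peaks, and no intron share of all the stronger peaks is given beside it. The share of all genes named in that part of the list was not computed, so these counts have no comparison. Within 10 kb of the TSS, the counts fell to 0 of the 10 genes, 0 peaks, 0 for ERG and 1 of the 28 family genes. The share of protein-coding RefSeq genes at that distance was 8.92%. Within 1 kb the count was 0 of the 10 genes. Of all peaks, 0.482% lay that close, and the share of all genes was not computed. Requiring a score of at least 50, a limit set after seeing the data, left 0 of the 10 genes, 0 peaks, 0 for ERG and 2 of the 28. At that score the share of protein-coding RefSeq genes was 7.66%. Assignment by position kept the counts of member genes, member peaks and family genes within 1.5 times, at 3, 8 and 5. Other counts moved further, with 1 peak in place of 2 for ERG and 2 fusion partners in place of 5. The share of peaks with a motif was 100% for GGAA over whole peaks and 0% for the ETS core within 100 bp. The median score of 35.64, beside 40.86 over all peaks, became 42.52 for the stronger 50%, beside 49.98 for that part of the list, and 41.75 for the strongest peak of each gene, beside 44.46 over all named genes. Both stayed below the list, but they rest on 2 and 3 values, selected by the score itself. Neither can show that the direction is stable. By position, an alternative added after seeing the data, the median was 41.33 beside 41.12. The cause of these changes was not tested. No paired analysis was possible because each group has 1 library. Depth is unknown, so no limit can be set on binding at a gene without a peak.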
